A study of Homo sapiens with 14 samples.

Results

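The respiratory chain of the inner mitochondrial membrane is built from 2 genomes, and its subunits were followed here across both. The members are the 13 protein-coding genes of mitochondrial DNA (symbols starting MT-) and 90 protein-coding nuclear genes whose symbols start with NDUFA, NDUFB, NDUFC, NDUFS, NDUFV, UQCR, COX4 to COX8, ATP5F1, ATP5M or ATP5P, or are SDHA to SDHD or CYC1. Assembly factors and pseudogenes were left out, which gave 103 of the 61533 genes of the count table. A filter on low counts, fitted to all genes, kept 94 of them for testing, 13 mitochondrial and 81 nuclear.

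The RNA came from SH-EP, a cell line long established from a human neuroblastoma. The SPARK-ON cells are a single clone that expresses n-Myc, the MYC-family transcription factor encoded by MYCN, as the SPARK-ON construct, at a level below its threshold for phase separation. In the study's design, lenalidomide, a drug that binds cereblon, brings about phase separation of this n-Myc at an unchanged protein level, and the n-Myc control cells, which lack SPARK-ON, show what the drug does by itself. The groups were SPARK-ON cells with lenalidomide (n = 3), SPARK-ON cells in DMSO, the solvent (n = 3), control cells with lenalidomide (n = 2) and control cells in DMSO (n = 3). All 11 libraries are from SH-EP cells and polyadenylated RNA. The labels used here give no dose or duration of treatment, and do not say whether replicates are separate cultures, so p-values measure the spread between these samples. Because the SPARK-ON line is 1 clone, effects of SPARK-ON and of the choice of clone cannot be told apart. In bulk samples like these, fewer cells expressing a gene and less RNA per cell cannot be told apart either.

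The libraries held 6614671 to 21511684 counted reads, the lowest in SPARK-ON lenalidomide replicate 3. Among control libraries 2 stood apart, and both enter the comparisons of the lines. Leaving out either control lenalidomide library leaves a single one, so calls against control cells with lenalidomide then rest on it. In control DMSO replicate 1 and control lenalidomide replicate 2 the tested nuclear subunits lay above their mean over all libraries by a median of 0.35 and 0.18 on the log2 scale, against -0.09 to 0.01 in the other 9 libraries. In the same libraries the median deviation of the 289 genes with transcripts under 800 bases was 0.28 and 0.16, and that of the 4766 genes over 4000 bases was -0.13 and -0.06. VIM, the mesenchymal filament gene, was between 501 and 576 CPM (reads scaled for library size and for TMM factors) in SPARK-ON libraries and between 1083 and 1361 CPM in control libraries. Of 8 mesenchymal markers, VIM and CD44 (484 to 560 CPM in SPARK-ON libraries, 1110 to 1197 CPM in control libraries) were called lower in both line comparisons, FN1 was called higher in both (119 to 157 CPM in SPARK-ON libraries, 58.3 to 104 CPM in control libraries), and the other 5 passed in neither. The 8 adrenergic markers summed to at most 8.73 CPM, with PHOX2A and ISL1 at no read. Summed markers of blood, epithelial, endothelial, liver and red cells stayed at 0.665 to 3.82 CPM. MYCN was between 2186 and 2618 CPM in SPARK-ON libraries and between 2089 and 2762 CPM in control libraries, and passed no test (SPARK-ON over control -0.09 in DMSO, adjusted p = 0.404; -0.02 with lenalidomide, adjusted p = 0.873). Gene counts do not separate the construct's transcript from the cell's own MYCN. MYC was between 3.29 and 8.38 CPM. It was higher in SPARK-ON than in control cells with lenalidomide (log2 1.02, adjusted p = 0.0042) and missed the threshold in DMSO (0.42, adjusted p = 0.149).

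Electrons enter the chain at complex I (NADH dehydrogenase) and complex II (succinate dehydrogenase), pass through complex III (cytochrome bc1) to complex IV (cytochrome c oxidase), and the proton gradient that this builds drives complex V (ATP synthase). Mitochondrial DNA encodes core subunits of complexes I, III, IV and V, is copied into long transcripts from both strands and cut into messages, while complex II and all remaining subunits are made in the cytosol from nuclear genes. MYC-family factors are known to act on nuclear genes of mitochondrial biogenesis.

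Messages of mitochondrial DNA outnumbered those of all nuclear subunits together in every library. The 13 mitochondrial genes took 1.96% to 2.49% of counted reads, and the 90 nuclear subunits took 0.934% to 1.20%. Counting error was small at this depth: the 95% Wilson interval of the highest mitochondrial share, in the shallowest library, ran from 2.48% to 2.50%. It covers counting error only. Reads of mitochondrial over nuclear subunits stood at 2.35, 2.22 and 2.57 in SPARK-ON cells with lenalidomide and at 2.25, 2.13 and 2.11 in SPARK-ON cells in DMSO. The ratios were 2.42 and 2.02 in control cells with lenalidomide and 1.69, 2.08 and 2.32 in control cells in DMSO. All 4 groups overlapped, and control DMSO replicate 1, the library with raised nuclear subunits, had the lowest ratio.

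The balance of the genomes differed between the lines by less than the spread between replicates. Group means were 2.38 ± 0.177 in SPARK-ON cells with lenalidomide, 2.16 ± 0.0730 in SPARK-ON cells in DMSO (SD, n = 3 each), 2.22 ± 0.285 in control cells with lenalidomide (SD, n = 2) and 2.03 ± 0.318 in control cells in DMSO (SD, n = 3). On the log2 scale, lenalidomide over DMSO was 0.13 in SPARK-ON cells, with a pooled SD between replicates of 0.083, and 0.14 in control cells, with a pooled SD of 0.22. Of these, the difference in SPARK-ON cells was larger than the spread and that in control cells smaller. Leaving out SPARK-ON lenalidomide replicate 3 brought the first to 0.076, and leaving out replicate 2 brought it to 0.18. The pooled SD of 0.083 includes both replicates and was not taken again without them. The second was 0.0055 without control lenalidomide replicate 1, 0.27 without control lenalidomide replicate 2, 0.010 without control DMSO replicate 1 and 0.24 without control DMSO replicate 3. SPARK-ON over control was 0.11 in DMSO (pooled SD 0.17) and 0.10 with lenalidomide (pooled SD 0.14). No test was made of these sums, since the members had been chosen. Without the 2 control libraries that stood apart, SPARK-ON over control was -0.02 in DMSO and -0.03 with lenalidomide. It was 0.21 in DMSO without control DMSO replicate 3, and with lenalidomide 0.23 without control replicate 1 and 0.044 without SPARK-ON replicate 3.

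**Figure D1:**
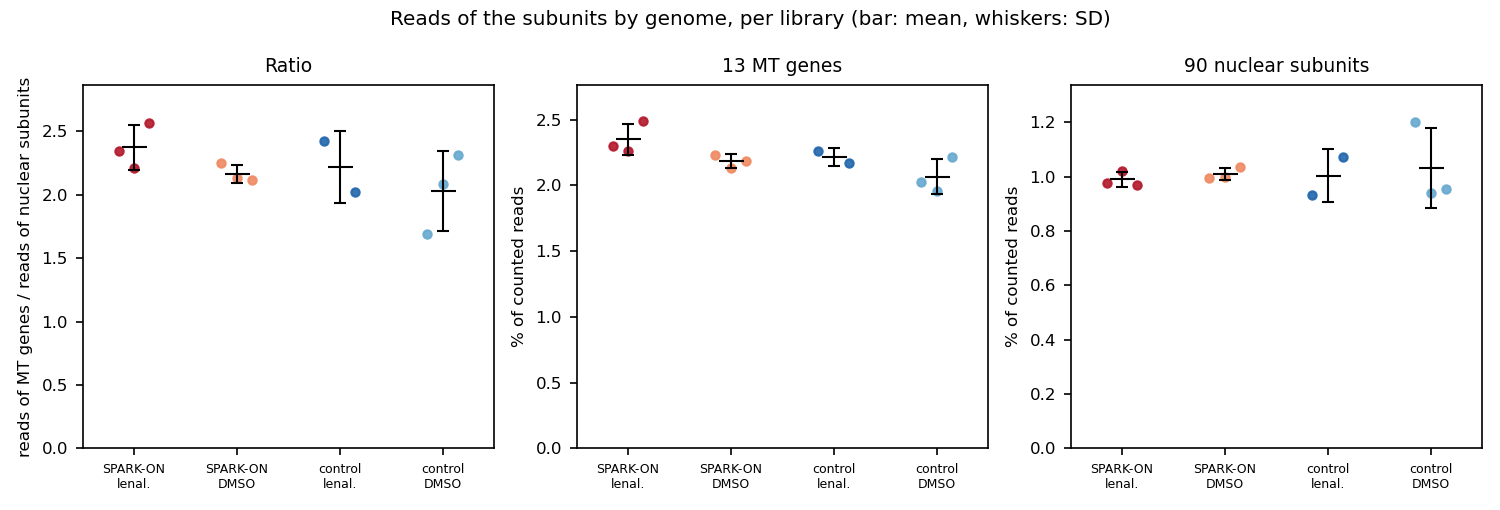
Reads of the 13 mitochondrial genes over reads of the 90 nuclear subunits (left), and the percent of counted reads that each set takes (middle and right), per library in the 4 groups; points are libraries, bars means and whiskers SD. The ratio lies between 1.69 and 2.57, with the lowest value in control DMSO, where the nuclear share reaches 1.20%.

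Complex III was the exception to the overlap of the lines. MT-CYB, the cytochrome b gene and the only mitochondrially encoded part of complex III, stood to the summed nuclear subunits of that complex at 0.661 ± 0.049 in SPARK-ON cells with lenalidomide and 0.581 ± 0.012 in SPARK-ON cells in DMSO (SD, n = 3 each). The ratio was 0.474 ± 0.038 in control cells with lenalidomide (SD, n = 2) and 0.440 ± 0.072 in control cells in DMSO (SD, n = 3). The lowest SPARK-ON library, at 0.570, lay above the highest control library, at 0.507. For complexes I, IV and V the lines overlapped, with ratios over all libraries between 1.86 and 2.92 for complex I, 4.35 and 6.60 for complex IV and 0.556 and 0.764 for complex V.

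Levels were taken per length of the principal transcript, the longest where several ranked equally, and as means over the 11 libraries. By this measure mitochondrial genes ran between 121 and 4390 CPM per kilobase with a median of 1595, against a median of 72.8 in the 81 tested nuclear subunits. MT-CO3, MT-CO1 and MT-CO2, the core of complex IV, were highest at 4390, 4058 and 3368 CPM per kilobase. The highest nuclear subunit by this measure, COX4I1 of complex IV, had 593. The order and medians of nuclear subunits depend on the transcript chosen. COX7C was divided by 1584 bases, ATP5F1E by 3665 and SDHC by 13566, and shorter transcripts would give higher levels. Other choices were not tested. MT-ND6 (212) and MT-ATP8 (121) were the lowest mitochondrial genes. Nuclear medians were 52.5 CPM per kilobase for complex I, 19.5 for complex II, 63.0 for complex III, 101 for complex IV and 80.2 for complex V. Counting could bear on these levels: the 36 tested nuclear subunits with no exon shared with another gene had a median of 113 CPM per kilobase, and the 24 with same-strand exon overlap had 19.4. Of the 23 tested nuclear subunits under 30 CPM per kilobase, 18 overlap another gene's exons.

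Some members share sequence with copies, so their levels are uncertain. SDHA, the catalytic subunit of succinate dehydrogenase, had 1076 reads over all libraries, against 8378 on its 4 listed copies. NDUFV2 had 194 reads against 858 on NDUFV2P1. UQCRHL, an intronless copy of the complex III hinge subunit UQCRH, shares 269 of its 273 coding bases with it (98.5%) and had 1129 reads against 55697. Copies of MT-ATP6 held 5.84% as many reads as the gene itself, and copies of each other mitochondrial gene at most 0.225%.

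The small mitochondrial genes are printed here from the transcripts of GENCODE 29 (GRCh38, plus strand), because each runs into the next gene and a read over the shared bases fits both. Capitals mark those shared bases, 46 of MT-ATP8 with MT-ATP6 (chrM:8527-8572) and 7 of MT-ND4L with MT-ND4 (chrM:10760-10766).
MT-ATP8 (chrM:8366-8572): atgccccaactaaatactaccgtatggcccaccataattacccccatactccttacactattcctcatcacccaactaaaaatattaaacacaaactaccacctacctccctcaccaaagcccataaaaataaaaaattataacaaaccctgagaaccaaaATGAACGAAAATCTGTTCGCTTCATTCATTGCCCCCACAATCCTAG
MT-ND4L (chrM:10470-10766): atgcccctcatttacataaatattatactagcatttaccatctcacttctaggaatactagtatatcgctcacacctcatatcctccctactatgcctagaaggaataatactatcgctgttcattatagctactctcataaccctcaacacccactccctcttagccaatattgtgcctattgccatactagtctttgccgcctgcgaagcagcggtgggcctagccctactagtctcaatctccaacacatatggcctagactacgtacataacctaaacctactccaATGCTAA
Both encode small membrane proteins, MT-ATP8 of ATP synthase and MT-ND4L of complex I, and both share a message with the gene downstream. How the counting treated such reads was not tested.

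The lines differed in the composition of the mitochondrial messages. In DMSO, 7 of the 13 mitochondrial genes passed the test in SPARK-ON against control cells, 4 higher and 3 lower, where 41.6% of all 16056 genes tested did (21.1% higher and 20.4% lower). With lenalidomide 7 of 13 passed, again 4 higher and 3 lower, against 39.4% of all genes (19.7% in each direction). These are edgeR quasi-likelihood tests with Benjamini-Hochberg adjustment over all genes and a threshold of 0.05, as are the adjusted p-values that follow, and each difference is log2 SPARK-ON over control with its standard error (SE). The mitochondrial median was -0.08 in DMSO and -0.03 with lenalidomide, beside 0.01 and 0.02 over all genes. Without the 2 control libraries that stood apart a single control lenalidomide library is left. The mitochondrial medians were then -0.12 and -0.08, beside 0.03 and 0.04 over all genes.

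MT-CYB, which lies at chrM:14747-15887, had 1226, 1171 and 1286 CPM in SPARK-ON cells with lenalidomide, 1120, 1105 and 1140 in SPARK-ON cells in DMSO, 926 and 974 in control cells with lenalidomide and 869, 845 and 958 in control cells in DMSO. All SPARK-ON libraries lay above all control libraries. MT-CYB was higher by 0.33 (SE 0.06) in DMSO, adjusted p = 0.000382, and by 0.37 (SE 0.07) with lenalidomide, adjusted p = 0.000499. It passed in both line comparisons under each of the 21 alternatives tried.

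MT-ND5 (chrM:12337-14148), a proton-pumping subunit of complex I, had 1319, 1623 and 1460 CPM in SPARK-ON cells with lenalidomide, 1406, 1374 and 1402 in SPARK-ON cells in DMSO, 982 and 1160 in control cells with lenalidomide and 607, 1074 and 1164 in control cells in DMSO. The lines did not overlap, and control DMSO replicate 1 was far below the other control libraries. It was higher by 0.56 (SE 0.16) in DMSO, adjusted p = 0.00784, and by 0.45 (SE 0.18) with lenalidomide, adjusted p = 0.0481. The second call was lost under 12 of 21 alternatives, among them leaving out control lenalidomide replicate 1 (0.34) or SPARK-ON lenalidomide replicate 2 (0.38). Without the 2 control libraries that stood apart the differences were 0.31 in DMSO and 0.58 with lenalidomide, the latter against a single control library.

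MT-ND6 (chrM:14149-14673), the only protein gene on the minus strand of mitochondrial DNA and a complex I subunit whose human message is known to lack a stable poly(A) tail, had 113, 155 and 130 CPM in SPARK-ON cells with lenalidomide and 113, 120 and 134 in SPARK-ON cells in DMSO. It had 88.5 and 101 CPM in control cells with lenalidomide and 80.2, 87.4 and 100 in control cells in DMSO, all below the SPARK-ON libraries. The differences were 0.45 (SE 0.11) in DMSO, adjusted p = 0.00267, and 0.49 (SE 0.12) with lenalidomide, adjusted p = 0.00428. Without control lenalidomide replicate 1 the call with lenalidomide was lost (0.40). The strand setting of the counting is not known here, so reads of MT-ND6 and of RNA antisense to it cannot be told apart. MT-ND3 of complex I was the fourth higher gene, at 961, 1151 and 1071 CPM in SPARK-ON cells with lenalidomide and 970, 1014 and 1074 in SPARK-ON cells in DMSO, against 760 and 879 in control cells with lenalidomide and 973, 712 and 728 in control cells in DMSO. Its groups overlapped in DMSO through control replicate 1 (0.34, SE 0.10, adjusted p = 0.0119), and not with lenalidomide (0.37, SE 0.12, adjusted p = 0.0155). The DMSO call was lost without SPARK-ON replicate 3 (0.30), control replicate 2 (0.26) or control replicate 3 (0.27), and the lenalidomide call without SPARK-ON replicate 2 (0.31) or control replicate 1 (0.27).

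Other genes of the same genome lay lower in SPARK-ON cells. MT-ND4, another proton pump of complex I, had 2026, 2087 and 2177 CPM in SPARK-ON cells with lenalidomide, 1964, 1925 and 1979 in SPARK-ON cells in DMSO, 2564 and 2437 in control cells with lenalidomide and 2302, 2187 and 2527 in control cells in DMSO. No SPARK-ON library reached the lowest control library. The differences were -0.26 (SE 0.06) in DMSO, adjusted p = 0.00256, and -0.25 (SE 0.07) with lenalidomide, adjusted p = 0.00664. MT-ND4L fell in DMSO (-0.32, SE 0.09, adjusted p = 0.00537) and missed the threshold with lenalidomide (-0.14, adjusted p = 0.277). MT-CO2, which binds cytochrome c, fell in both (-0.21, SE 0.07, adjusted p = 0.017 in DMSO; -0.25, SE 0.08, adjusted p = 0.0122 with lenalidomide). MT-ATP6, the proton channel of ATP synthase, was lower in SPARK-ON than in control cells with lenalidomide (-0.23, SE 0.08, adjusted p = 0.0299). It missed the threshold in DMSO (-0.18, adjusted p = 0.057). With scaling by library size alone, MT-CO2 passed in neither comparison, and MT-ND4 and MT-ATP6 did not pass with lenalidomide. Without control lenalidomide replicate 1, MT-ND4 (-0.22), MT-CO2 (-0.20) and MT-ATP6 (-0.17) did not pass with lenalidomide. Without SPARK-ON lenalidomide replicate 2, MT-CO2 (-0.21) and MT-ATP6 (-0.18) did not, nor did MT-ATP6 without replicate 1 of that group (-0.23). In DMSO MT-CO2 did not pass without SPARK-ON replicate 2 (-0.18) or control replicate 3 (-0.19).

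The remaining mitochondrial genes passed in neither line comparison with all libraries in the fit. In DMSO this rested on the 2 control libraries that stood apart, so it does not show these genes to be equal in the lines. MT-CO1, the catalytic subunit of complex IV and the message with the most reads, ran between 5459 and 7275 CPM in SPARK-ON libraries and between 5824 and 6804 CPM in control libraries (-0.08 in DMSO, -0.02 with lenalidomide). MT-CO3 ran between 3347 and 3786 CPM in SPARK-ON libraries and between 2897 and 3698 CPM in control libraries (0.07 and 0.03). MT-ND1 (-0.14 in DMSO, adjusted p = 0.108; -0.16 with lenalidomide, adjusted p = 0.114) and MT-ND2 (0.14, adjusted p = 0.0935; -0.03) are core subunits of complex I, and MT-ATP8 had only 14.6 to 32.1 CPM (-0.34, adjusted p = 0.161; -0.12).

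**Figure D2:**
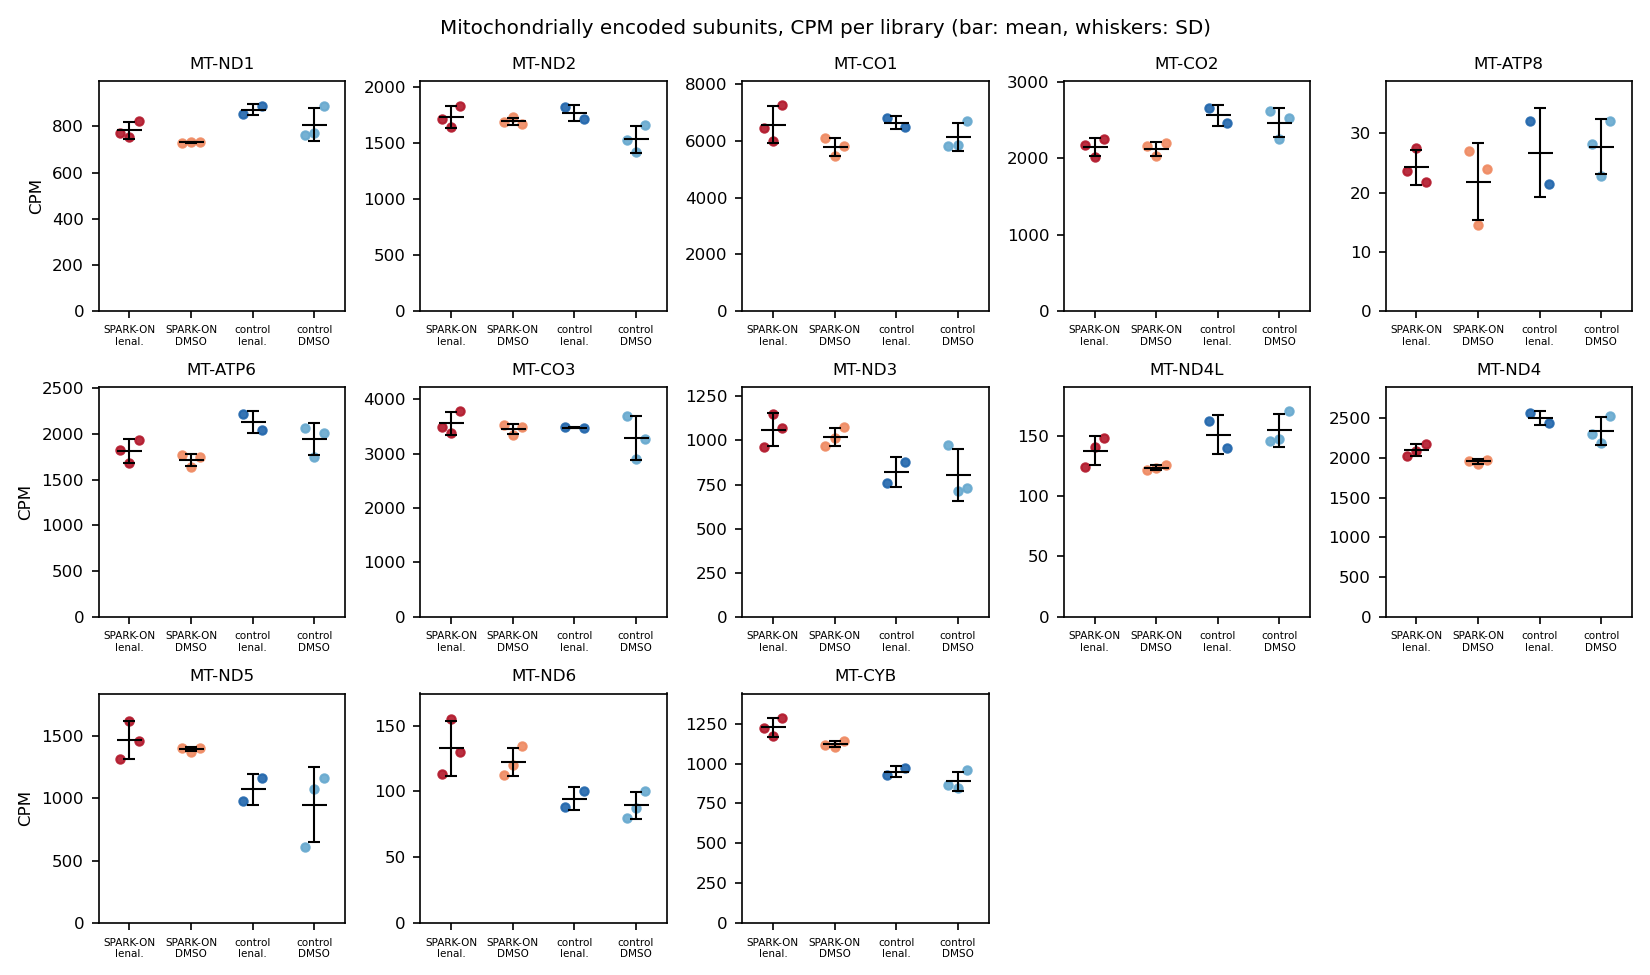
CPM of the 13 mitochondrially encoded subunits, in genome order, per library in the 4 groups; points are libraries, bars means and whiskers SD, and every axis starts at 0. MT-ND5, MT-ND6 and MT-CYB lie higher in every SPARK-ON library than in any control library, and MT-ND4 lies lower.

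Taken as shares of the 13 genes' own reads, which no scaling of libraries can move, 3 genes lay above in all SPARK-ON libraries, 3 below, and 7 overlapped. MT-CYB took 5.16% to 5.52% of mitochondrial reads in SPARK-ON libraries and 3.97% to 4.28% in control libraries. MT-ND5 took 5.93% to 7.44% in SPARK-ON libraries and 2.82% to 5.36% in control libraries, and MT-ND6 took 0.510% to 0.709% in SPARK-ON libraries and 0.373% to 0.442% in control libraries. These 3 genes lie next to each other, from chrM:12337 to chrM:15887, with MT-ND6 on the strand opposite to the others. MT-ND4 took 8.99% to 9.56% in SPARK-ON libraries and 10.7% to 11.1% in control libraries, and MT-CO2 took 9.26% to 10.2% in SPARK-ON libraries and 10.8% to 12.2% in control libraries. MT-ATP6 took 7.71% to 8.18% in SPARK-ON libraries and 8.72% to 9.62% in control libraries. By CPM over the same libraries, 3 mitochondrial genes lay above (MT-CYB, MT-ND5 and MT-ND6) and 1 below (MT-ND4), where 18.7% of all genes tested lay above and 18.5% below.

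Among nuclear subunits, with all libraries in the fit, the called differences ran mostly downwards. In DMSO 18 of 81 passed (22.2%), 2 higher and 16 lower in SPARK-ON cells, and with lenalidomide 12 of 81 passed (14.8%), 2 higher and 10 lower, both fewer than the share of all genes. By direction, 19.8% of the 81 were lower in DMSO, beside 20.4% of all genes, and 2.47% were higher, beside 21.1%. With lenalidomide 12.3% were lower and 2.47% higher, beside 19.7% of all genes in each direction. Medians were -0.11 in both. Over both genomes 25 members were called in DMSO (6 higher, 19 lower) and 19 with lenalidomide (6 higher, 13 lower). With scaling by library size alone, under which the median of all genes moved to 0.10 in DMSO and 0.12 with lenalidomide, the split was 10 higher and 11 lower in DMSO and 11 higher and 7 lower with lenalidomide. Of all genes 42.4% and 40.1% were called then. The split also rested on a single control library. Without control DMSO replicate 1 alone, 29 members were called in DMSO, 17 higher and 12 lower, where 43.5% of all genes were. With lenalidomide 33 were, 7 higher and 26 lower, where 46.4% of all genes were. Without both libraries that stood apart, a single control lenalidomide library is left. The nuclear median was then 0.02 in DMSO and -0.02 with lenalidomide. The part of transcript length in these counts was not tested.

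Across the 2 line comparisons, which share no library, 15 members were called in the same direction, 5 higher and 10 lower. They are 60.0% of the members' calls in DMSO and 78.9% of those with lenalidomide. Over all genes the same count was 5235, which is 78.4% of the calls in DMSO and 82.6% of those with lenalidomide. ATP5F1A, UQCRFS1, NDUFB7, UQCR11 and MT-CYB passed in both comparisons under every alternative tried.

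ATP5F1A, which encodes the alpha subunit of the catalytic head of ATP synthase (chromosome 18, 46080248 to 46104334, minus strand), had the smallest p of all members in both line comparisons. It had 318, 292 and 317 CPM in SPARK-ON cells with lenalidomide, 326, 309 and 335 in SPARK-ON cells in DMSO, 528 and 561 in control cells with lenalidomide and 628, 541 and 554 in control cells in DMSO. The lines were far apart and varied little within groups. It fell by 0.83 (SE 0.07) in DMSO, adjusted p = 3.5e-08, and by 0.82 (SE 0.08) with lenalidomide, adjusted p = 1.89e-07. Its partner in the head, ATP5F1B, did not pass (-0.02 and -0.03), at 826 to 931 CPM in SPARK-ON libraries and 806 to 1001 CPM in control libraries. In the central stalk, ATP5F1D, the delta subunit, had 83.5, 77.6 and 81.6 CPM in SPARK-ON cells with lenalidomide and 84.4, 86.5 and 85.4 in SPARK-ON cells in DMSO, against 102 and 126 in control cells with lenalidomide and 154, 111 and 120 in control cells in DMSO. It fell by 0.59 (SE 0.11) in DMSO, adjusted p = 0.000195, and by 0.50 (SE 0.12) with lenalidomide, adjusted p = 0.00276, where it did not pass without control replicate 2 (-0.33).

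The membrane subunits e, g and k of ATP synthase also fell in DMSO. ATP5ME, at 2.06 to 3.78 CPM in SPARK-ON libraries and 4.11 to 7.38 CPM in control libraries, changed by -0.78 (adjusted p = 0.00852; -0.54 with lenalidomide, adjusted p = 0.119), ATP5MG changed by -0.45 (adjusted p = 0.0212) and ATP5MK by -0.27 (adjusted p = 0.048; -0.30 with lenalidomide, adjusted p = 0.0499). ATP5PF, of the peripheral stalk, was lower in SPARK-ON than in control cells with lenalidomide (-0.35, adjusted p = 0.0295). Without control DMSO replicate 1, ATP5MG (-0.34) and ATP5MK (-0.11) did not pass in DMSO, and without control lenalidomide replicate 2, ATP5MK (-0.21) and ATP5PF (-0.22) did not pass with lenalidomide. ATP5MK was lost under 15 of 21 alternatives in DMSO. In all, 5 of 17 tested nuclear subunits of complex V were called lower in DMSO and none higher (29.4% and 0%, beside 20.4% and 21.1% of all genes). The genes of the c ring, ATP5MC1 (-0.08 in DMSO, 0.03 with lenalidomide), ATP5MC2 (-0.15, -0.16) and ATP5MC3 (0.01, 0.03), which encode the same mature protein, did not pass.

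In complex III, where MT-CYB was higher, calls of nuclear subunits ran both ways. UQCRFS1, the Rieske iron-sulfur protein (chromosome 19, 29205321 to 29213541), had 140, 135 and 138 CPM in SPARK-ON cells with lenalidomide and 151, 150 and 154 in SPARK-ON cells in DMSO, against 206 and 219 in control cells with lenalidomide and 250, 213 and 199 in control cells in DMSO. It fell by 0.54 (SE 0.08) in DMSO, adjusted p = 2.22e-05, and by 0.63 (SE 0.09) with lenalidomide, adjusted p = 1.76e-05. UQCR11, a small accessory subunit, fell by 0.52 (SE 0.14) in DMSO, adjusted p = 0.00487, and by 0.62 (SE 0.15) with lenalidomide, adjusted p = 0.00348, at 9.85 to 12.6 CPM in SPARK-ON libraries and 13.2 to 18.1 CPM in control libraries. UQCRC2, core protein 2, went the other way. It had 196, 201 and 194 CPM in SPARK-ON cells with lenalidomide, 210, 213 and 216 in SPARK-ON cells in DMSO, 190 and 183 in control cells with lenalidomide and 186, 182 and 182 in control cells in DMSO. It rose by 0.22 (SE 0.06) in DMSO, adjusted p = 0.00887, and missed the threshold with lenalidomide (0.08, adjusted p = 0.376). UQCRH and UQCRHL did not pass, at -0.24 and -0.18 in DMSO and -0.17 and -0.34 with lenalidomide.

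Complex I had 8 of 37 tested nuclear subunits lower in DMSO and none higher (21.6% and 0%, beside 20.4% and 21.1% of all genes). NDUFB7, an accessory subunit of its membrane arm (chromosome 19, 14566078 to 14572062), had 91.2, 85.6 and 77.4 CPM in SPARK-ON cells with lenalidomide and 80.5, 76.5 and 85.9 in SPARK-ON cells in DMSO, against 118 and 132 in control cells with lenalidomide and 180, 120 and 122 in control cells in DMSO. It fell by 0.80 (SE 0.12) in DMSO, adjusted p = 4.23e-05, and by 0.56 (SE 0.14) with lenalidomide, adjusted p = 0.00348. NDUFA11, another membrane-arm subunit, fell in both (-0.68, adjusted p = 0.00298; -0.70, adjusted p = 0.0076), at 4.27 to 6.36 CPM in SPARK-ON libraries and 7.27 to 8.79 CPM in control libraries. The iron-sulfur subunits NDUFS7 (-0.76, adjusted p = 0.0221) and NDUFS8 (-0.27, adjusted p = 0.0268) fell in DMSO, and NDUFS7 was at 0.27 with lenalidomide (adjusted p = 0.49). The accessory subunits NDUFA3 (-0.40, adjusted p = 0.025), NDUFB11 (-0.30, adjusted p = 0.0193), NDUFB2 (-0.55, adjusted p = 0.038) and NDUFC2 (-0.43, adjusted p = 0.044) fell in DMSO. With lenalidomide in both lines, NDUFS5 was lower in SPARK-ON cells (-0.33, adjusted p = 0.0223). NDUFS6, an accessory subunit near the iron-sulfur core, was higher in SPARK-ON than in control cells with lenalidomide (0.39, SE 0.13, adjusted p = 0.0278). In DMSO its difference was 0.14 (adjusted p = 0.381). NDUFS1, the largest iron-sulfur subunit, lay at 158 to 171 CPM in all SPARK-ON libraries and 148 to 152 CPM in all control libraries without passing (0.15, adjusted p = 0.058 in DMSO; 0.08, adjusted p = 0.411 with lenalidomide). It is named for this after its values were seen. Without control DMSO replicate 1, NDUFS7 (-0.61), NDUFS8 (-0.16), NDUFA3 (-0.19), NDUFB11 (-0.17), NDUFB2 (-0.24) and NDUFC2 (-0.20) did not pass in DMSO. Of 21 alternatives, 12 lost the DMSO call of NDUFC2, 11 that of NDUFB2, 7 that of NDUFS8, 6 that of NDUFA3, 4 that of NDUFB11 and 3 that of NDUFS7. Without control lenalidomide replicate 2, NDUFA11 (-0.59) and NDUFS5 (-0.28) did not pass with lenalidomide, nor did NDUFS6 without replicate 1 of that group (0.21).

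Complex II, wholly nuclear, had 1 call in each comparison. SDHC, a membrane anchor of succinate dehydrogenase, had 83.5, 85.4 and 85.0 CPM in SPARK-ON cells with lenalidomide and 74.0, 81.0 and 83.0 in SPARK-ON cells in DMSO, against 64.0 and 65.9 in control cells with lenalidomide and 74.3, 57.1 and 56.6 in control cells in DMSO. It rose by 0.34 (SE 0.10) in DMSO, adjusted p = 0.00792, and by 0.38 (SE 0.11) with lenalidomide, adjusted p = 0.00935, where it did not pass without control replicate 1 (0.36). The catalytic SDHA (-0.00 and -0.32), the iron-sulfur SDHB (0.01 and -0.10) and the other anchor, SDHD (-0.01 and -0.10), did not pass in DMSO or with lenalidomide.

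Complex IV had 1 call among 13 tested nuclear subunits in each comparison, COX6B1, which joins the monomers of the enzyme. It had 124, 130 and 131 CPM in SPARK-ON cells with lenalidomide, 125, 131 and 134 in SPARK-ON cells in DMSO, 147 and 214 in control cells with lenalidomide and 261, 166 and 179 in control cells in DMSO. It fell by 0.63 (SE 0.14) in DMSO, adjusted p = 0.00138, and by 0.50 (SE 0.16) with lenalidomide, adjusted p = 0.0171, where it did not pass without control replicate 2 (-0.20). It was lower by less, at -0.41 in DMSO and -0.21 with lenalidomide, when the 2 control libraries that stood apart were left out. That leaves a single control lenalidomide library. Of the isoforms, the ubiquitous forms were the abundant ones: COX4I1 ran between 366 and 532 CPM and COX7A2 between 179 and 254 CPM over all libraries. Their differences were -0.10 and -0.08 in DMSO and -0.05 and -0.13 with lenalidomide, none of which passed. COX7B (-0.09, and -0.24 with adjusted p = 0.0565), COX8A (-0.40 and 0.05), NDUFA4 (-0.16 and -0.09) and its relative NDUFA4L2 (-0.72 and -0.43, at 0.77 to 2.06 CPM) did not pass, nor did COX6A1 (-0.11 and -0.15).

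The tissue-restricted isoforms were near or at 0. COX4I2, COX6A2, COX7B2 and COX8C had no read in any library, nor had the readthrough gene NDUFC2-KCTD14, where 3 reads would give 0.139 to 0.454 CPM, so lower levels were not detectable. COX7A1, the heart and muscle isoform, had a mean of 0.36 CPM per kilobase and COX6B2, the testis isoform, 0.069. Neither was tested, nor were ATP5MF-PTCD1 and ATP5MGL, which makes 9 members that missed the filter.

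**Figure D3:**
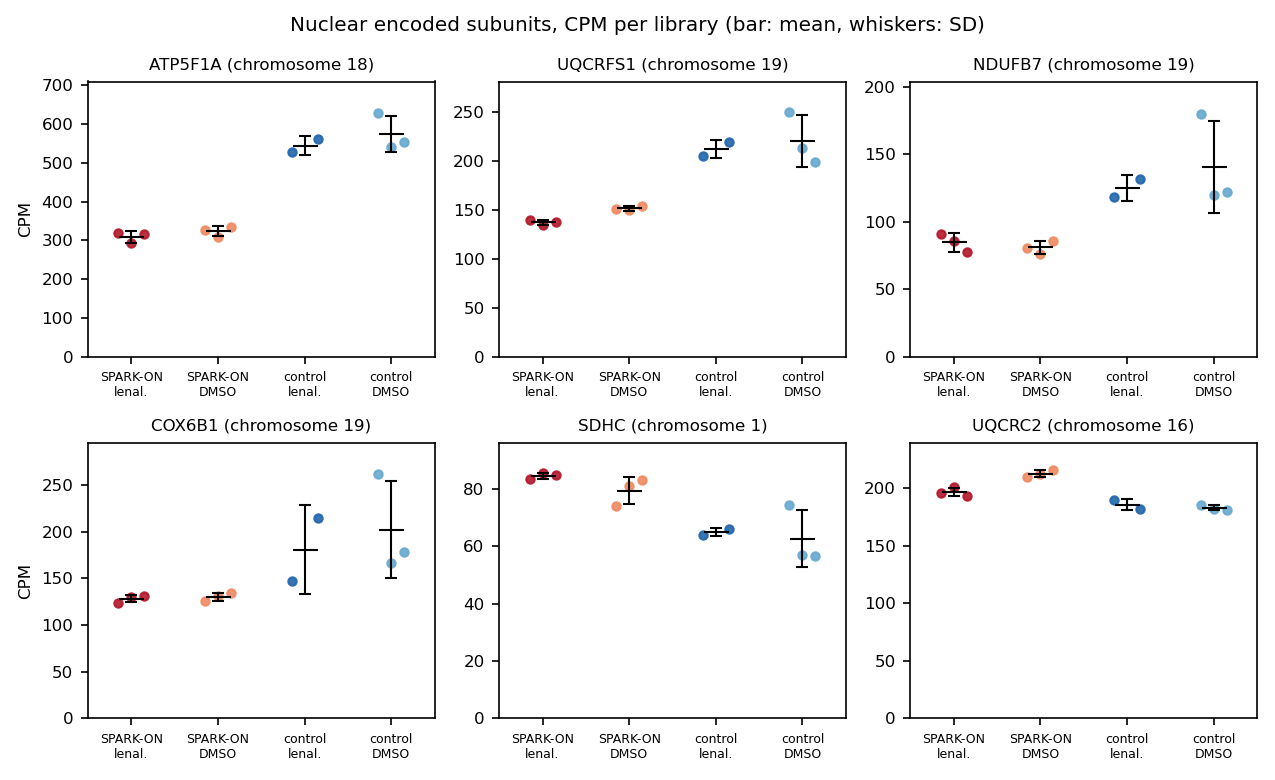
CPM of 6 nuclear subunits, 3 of them called in every alternative and in both line comparisons (ATP5F1A, UQCRFS1 and NDUFB7), per library in the 4 groups; points are libraries, bars means and whiskers SD, and every axis starts at 0. ATP5F1A, UQCRFS1, NDUFB7 and COX6B1 are lower in SPARK-ON cells than in control cells, and SDHC and UQCRC2 are higher in DMSO.

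The lower nuclear subunits gathered on chromosomes 18 and 19, an observation made after the values were seen. Of the 12 tested members there, 9 were called lower in DMSO and 7 with lenalidomide, with none higher, and all 10 on chromosome 19 had differences below 0 in DMSO. Other genes of these chromosomes did the same. Of 1317 tested, 61.6% were lower and 7.37% higher in DMSO, with a median of -0.60 beside the members' -0.61, and with lenalidomide 56.0% were lower, with a median of -0.59 beside -0.50. On the remaining nuclear chromosomes, 7 of 69 members were lower and 2 higher in DMSO (10.1% and 2.9%), against 16.9% and 22.6% of 14336 other genes. With lenalidomide 3 were lower and 2 higher (4.35% and 2.9%), against 16.7% and 21.1% of those genes. Without the 2 control libraries that stood apart, members on chromosomes 18 and 19 had a median of -0.46 in DMSO, beside -0.56 for their other genes. With lenalidomide it was -0.34 beside -0.50. Members elsewhere then had a median of 0.04 beside 0.06 for other genes in DMSO, and 0.03 beside 0.07 with lenalidomide. With all libraries those medians were -0.09 beside 0.04 and -0.09 beside 0.05. The few higher calls elsewhere therefore depended on the control libraries. Without control DMSO replicate 1 alone, 17 members on all chromosomes were higher and 12 lower in DMSO, instead of 6 and 19, where 43.5% of all genes were called.

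Around the 7 members called lower in both line comparisons on chromosomes 18 and 19, more neighbouring genes were lower than higher. Within 2 Mb of the start of ATP5F1A, 10 of 13 tested genes were lower in DMSO and 2 higher, with a median of -1.16. Around COX6B1 50 of 83 were lower (median -0.78), around NDUFB7 46 of 72 (median -0.51), and around UQCRFS1 4 of 9 (median -0.42). The neighbours of SDHC, on chromosome 1, had a median of 0.07, with 7 of 41 higher and 2 lower. Around ATP5MK, on chromosome 10 and called lower in both line comparisons, 13 of 44 were higher and 5 lower, with a median of -0.0068. The part of chromosome position in the subunits' differences was not tested.

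**Figure D4:**
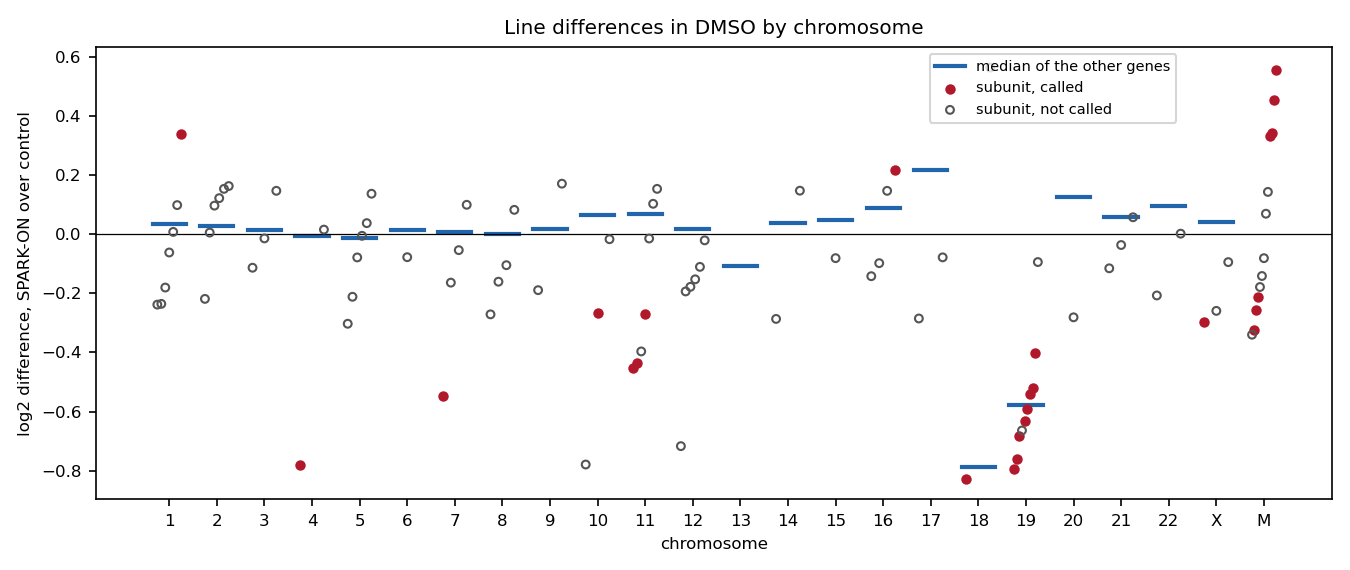
Log2 difference of SPARK-ON over control in DMSO for each tested subunit, by chromosome; filled points were called, open points were not, and each bar is the median of the other tested genes of that chromosome. On chromosomes 18 and 19 the bars and most subunits lie far below 0, with medians of -0.79 and -0.58 for the other genes, and the mitochondrial genes (M) spread on both sides.

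The promoters of the members called lower in every alternative and both line comparisons are printed to show which motifs of factors known for respiratory genes they hold. Each is a window of 300 bases, from 250 before to 50 after the start, taken from RefSeq (GRCh38.p14, minus strand), written 5′ to 3′. Capitals mark a match, on either strand, to the NRF1 motif (GCGCA, any base, GCGC), to CCGGAAG (ETS factors such as GABPA) or to CACGTG (the E-box of MYC-family factors).
ATP5F1A (chr18:46104178-46104477): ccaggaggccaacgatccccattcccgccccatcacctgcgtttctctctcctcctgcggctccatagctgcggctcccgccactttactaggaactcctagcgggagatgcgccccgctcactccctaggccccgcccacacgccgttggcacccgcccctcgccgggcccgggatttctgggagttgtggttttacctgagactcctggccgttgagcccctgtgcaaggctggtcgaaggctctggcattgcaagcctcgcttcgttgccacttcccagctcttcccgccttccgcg
UQCRFS1 (chr19:29213102-29213401): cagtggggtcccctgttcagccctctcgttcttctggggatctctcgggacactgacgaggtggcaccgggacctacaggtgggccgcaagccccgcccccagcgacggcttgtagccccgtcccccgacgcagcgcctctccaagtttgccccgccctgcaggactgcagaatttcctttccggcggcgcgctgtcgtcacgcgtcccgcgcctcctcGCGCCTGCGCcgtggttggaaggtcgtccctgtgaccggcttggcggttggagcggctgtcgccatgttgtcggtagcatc
NDUFB7 (chr19:14572017-14572316): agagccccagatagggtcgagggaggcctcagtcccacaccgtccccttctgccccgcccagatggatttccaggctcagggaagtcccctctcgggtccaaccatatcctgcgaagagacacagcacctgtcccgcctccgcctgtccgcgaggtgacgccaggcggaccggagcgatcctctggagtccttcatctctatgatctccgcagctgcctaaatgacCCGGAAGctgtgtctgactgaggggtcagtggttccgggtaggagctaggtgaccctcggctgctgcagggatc
UQCR11 (chr19:1605413-1605712): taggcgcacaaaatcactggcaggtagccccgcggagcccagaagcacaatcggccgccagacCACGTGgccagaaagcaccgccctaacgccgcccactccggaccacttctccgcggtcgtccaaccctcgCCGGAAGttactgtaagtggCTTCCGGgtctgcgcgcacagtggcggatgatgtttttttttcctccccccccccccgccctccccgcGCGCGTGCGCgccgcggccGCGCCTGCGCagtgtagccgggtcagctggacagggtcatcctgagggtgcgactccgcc
The window of ATP5F1A holds no match to any motif searched, that of UQCRFS1 1 NRF1 match, that of NDUFB7 1 ETS match and that of UQCR11 2 NRF1, 2 ETS and 1 E-box matches. Of the 90 nuclear members 72 had a promoter entry. The NRF1 motif was in 17 of them (23.6%, against 5.78% of 35116 promoters), the ETS motif in 20 (27.8%, against 10.3%), AAGATGGCG (YY1) in 8 (11.1%, against 1.75%), TCAAGGTCA (estrogen-related receptors) in 1 (1.39%, against 0.353%) and the E-box CACGTG in 7 (9.72%, against 7.26%). Both strands were searched, and motifs could overlap. Of the 7 members lower in both line comparisons that had an entry, 3 held the NRF1, 4 the ETS and 2 the E-box motif.

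With all libraries in the fit, lenalidomide changed no subunit past the threshold in either line. In SPARK-ON cells none of 94 members was called, where 11 of all genes were (0.0685%), and in control cells none was called, where 7 were (0.0436%). At an unadjusted p below 0.05 stood 1 member in each line, of 860 and 774 genes, and DESeq2 and limma-voom called no member in either line. The genomes lay on different sides of 0 in SPARK-ON cells: lenalidomide over DMSO was above 0 for all 13 mitochondrial genes, with a median of 0.10 and a range of 0.02 to 0.18, and below 0 for 56 of 81 nuclear subunits, with a median of -0.04, beside 0.01 over all genes. In control cells it was above 0 for 11 of 13 mitochondrial genes (median 0.09) and below 0 for 52 of 81 nuclear subunits (median -0.03), beside 0.00 over all genes. SPARK-ON lenalidomide replicate 3, the shallowest library, was high for the mitochondrial genes, with a median deviation of 0.14 from their means over libraries.

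The smallest p in SPARK-ON cells belonged to MT-CO1, at 6466, 6001 and 7275 CPM with lenalidomide and 6104, 5459 and 5835 CPM in DMSO (0.18, adjusted p = 0.825). MT-CYB followed, with every lenalidomide library above every DMSO library (0.13, adjusted p = 0.925), then NDUFS7 (0.50, adjusted p = 0.944). In control cells MT-ND2 (0.20, adjusted p = 0.904), ATP5ME (-0.50, adjusted p = 1) and NDUFS7 (-0.53, adjusted p = 1) came first. The spread was smaller in SPARK-ON libraries than in control libraries, with a common biological coefficient of variation of 4.71% against 12.9%. Fitted by themselves, the 6 SPARK-ON libraries called 3 members, where 381 of 14652 genes were called (2.6%). MT-CO1 rose by 0.18 (SE 0.04, adjusted p = 0.00258), MT-CYB by 0.12 (adjusted p = 0.0482), and CYC1, the nuclear cytochrome c1 of complex III, changed by -0.14 (adjusted p = 0.0476). The 5 control libraries by themselves called no gene (0%). MT-CO1 was called in SPARK-ON cells (0.17, adjusted p = 0.00542), where 1.49% of all genes were, when the 2 control libraries that stood apart were left out. In control cells 4 members were called then, where 0.628% of all genes were. MT-ND2 (0.23, adjusted p = 0.0289) and MT-ATP6 (0.23, adjusted p = 0.0412) were higher, and CYC1 (-0.28, adjusted p = 0.0142) and NDUFA1 (-0.44, adjusted p = 0.0289) lower.

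The response to lenalidomide was not shown to differ between the lines for any member. Of all 16056 genes 0% passed the test of that difference in edgeR, 669 of them with an unadjusted p below 0.05. DESeq2 called 3 genes and none of the members. NDUFS7 had the smallest p among members, with a difference of responses of 1.04 (adjusted p = 1) at 2.10 to 5.97 CPM. For the log2 ratio of the genomes the difference of responses was -0.0047, with a pooled SD of 0.16.

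**Figure D5:**
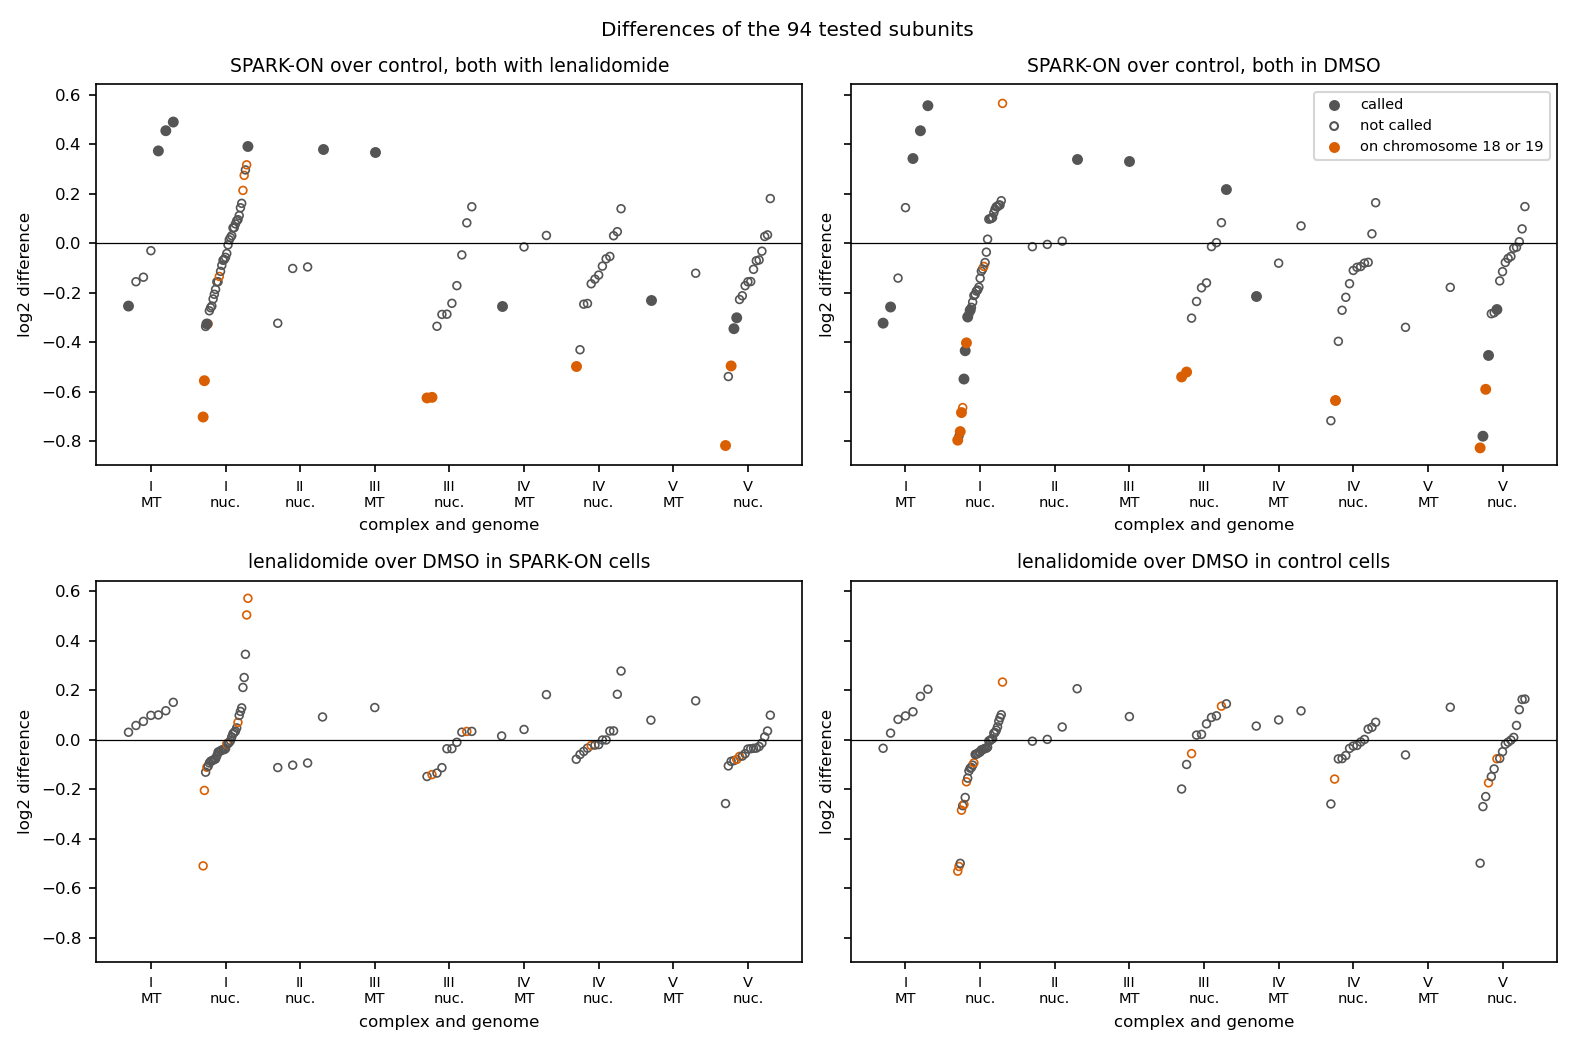
Log2 differences of the 94 tested subunits in 4 comparisons, by complex (I to V) and genome (MT, mitochondrial; nuc., nuclear); filled points were called at an adjusted p below 0.05 and open points were not, and orange marks chromosomes 18 and 19. The lower panels, lenalidomide over DMSO, have no filled point, and the lowest filled points of the upper panels, SPARK-ON over control, include ATP5F1A at -0.83 in DMSO and -0.82 with lenalidomide.

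The genes that build and regulate the chain were counted from lists written from general knowledge. They are read beside the shares of all genes, 21.1% higher and 20.4% lower in DMSO and 19.7% in each direction with lenalidomide. Every difference in this and the next paragraph is SPARK-ON over control, in DMSO or with lenalidomide, and not lenalidomide over DMSO. Of 49 tested assembly factors, 15 were higher and 4 lower in SPARK-ON cells in DMSO (30.6% and 8.16%), and 11 higher and 3 lower with lenalidomide (22.4% and 6.12%), with medians of 0.06 and -0.03. SCO1, which delivers copper to complex IV, rose in both (0.64, adjusted p = 1.69e-06; 0.51, adjusted p = 0.000134), as did UQCC1, an assembly factor of complex III (0.40, adjusted p = 0.000588; 0.36, adjusted p = 0.00503). TMEM242, which acts in ATP synthase assembly, was higher in SPARK-ON than in control cells with lenalidomide, by 0.45 (adjusted p = 0.00239). COX18, the translocase of MT-CO2, was higher in DMSO by 0.43 (adjusted p = 0.000239). Of 33 genes that copy, transcribe and process mitochondrial DNA and RNA, 6 were higher and 4 lower in DMSO (18.2% and 12.1%), and 4 higher and 5 lower with lenalidomide (12.1% and 15.2%). MTERF1, a mitochondrial transcription termination factor, changed by -1.04 in DMSO (adjusted p = 5.47e-06) and by -1.12 with lenalidomide (adjusted p = 9.07e-06). POLRMT, the mitochondrial RNA polymerase on chromosome 19, changed by -0.52 (adjusted p = 2.76e-05) and -0.51 (adjusted p = 0.000127). In DMSO MGME1, a mitochondrial exonuclease, rose by 0.35 (adjusted p = 0.00173), and with lenalidomide MTERF3 changed by -0.45 (adjusted p = 0.000986). Without the 2 control libraries that stood apart, the median of assembly factors was 0.15 in DMSO and 0.07 with lenalidomide. That of the DNA and RNA genes was then 0.07 and 0.03. TFAM, which packages mitochondrial DNA and starts its transcription, did not pass (0.11 and 0.01).

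Among the listed regulators, PPARGC1A differed most. It encodes PGC-1 alpha, a coactivator of respiratory genes. It had 19.7, 19.4 and 24.1 CPM in SPARK-ON cells with lenalidomide and 22.4, 17.5 and 21.0 in SPARK-ON cells in DMSO, against 4.36 and 3.94 in control cells with lenalidomide and 4.61, 5.06 and 5.06 in control cells in DMSO. It rose by 2.05 (SE 0.14) in DMSO, adjusted p = 1.26e-09, and by 2.33 (SE 0.17) with lenalidomide, adjusted p = 3.99e-09. Of the 8 listed regulators 3 were higher and 2 lower in DMSO, and 2 higher and 3 lower with lenalidomide. ESRRA, a nuclear receptor that works with it, rose by 0.48 (adjusted p = 0.000224) and 0.31 (adjusted p = 0.0198). PPARGC1B rose by 0.73 in DMSO (adjusted p = 0.00236), and GABPA changed by -0.24 (adjusted p = 0.0468) and -0.49 (adjusted p = 0.00123). Of 13 enzymes of the citric acid cycle 7 were higher in DMSO (53.8%, beside 21.1% of all genes) and 3 with lenalidomide (23.1%, beside 19.7%), and none lower. IDH3A (0.25, adjusted p = 0.00765) and SUCLG1 (0.28, adjusted p = 0.0124) were higher in SPARK-ON cells in DMSO. With lenalidomide in both lines, OGDH was higher in SPARK-ON cells by 0.37 (adjusted p = 0.00148) and IDH3B by 0.23 (adjusted p = 0.0493). Of 17 genes of cytochrome c, coenzyme Q and the electron-transfer flavoprotein, 1 was higher and 2 lower in DMSO, and 1 higher and 1 lower with lenalidomide, among them COQ6 (0.55, adjusted p = 0.0306; 0.78, adjusted p = 0.0129), COQ2 (-0.33 and -0.44) and COQ8B, on chromosome 19 (-0.36 in DMSO). Without the 2 control libraries that stood apart, the median of the cycle enzymes was 0.14 in DMSO and 0.14 with lenalidomide. No listed gene was called for lenalidomide in either line.

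Over the 11 libraries the genes whose log2 CPM followed the mean of the mitochondrial members most closely were NEK6 (Pearson r = 0.921), C11orf65 (0.875), an unnamed gene, ENSG00000237846 (0.87), CCDC77 (0.865) and IRF1-AS1 (0.856). For the mean of the nuclear members they were the ribosomal protein genes RPS29 (0.975), RPL35A (0.971), RPL9 (0.968), RPL27A (0.962) and RPS21 (0.96). These values describe likeness among libraries that differ in line, drug and short-transcript level, and no test was made of them.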

How the data were processed

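Read counts per gene were analysed for 11 libraries of polyadenylated RNA in 4 groups. The values are raw counts as deposited, whole numbers with no normalization; per the submitters' processing notes FastQC, fastp, HTSeq, edgeR and the hg38 genome were used. The aligner, versions, annotation and strand setting are not given in the sources used here. A further 3 columns matched no label and were not used, so baseline SH-EP cells were not analysed here.

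Genes were mapped by Ensembl ID with GENCODE 29, which also gave positions, transcript lengths and overlaps. Transcript length is that of the principal transcript, the longest where several ranked equally. The edgeR 4.0.16 package for R 4.3.3 was used. Its filterByExpr (minimum count 10) left 16056 genes, and libraries were scaled by TMM. The 4 groups entered a one-way layout with 7 residual degrees of freedom, with glmQLFit and two-sided glmQLFTest, after a check on simulated data. P-values were adjusted over all genes (Benjamini-Hochberg, 0.05). SE is the log2 difference divided by the root of F. DESeq2 1.42.0 and limma-voom 3.58.1 were alternatives, with other scalings, filters, libraries and a replicate block. Shares and ratios of reads were computed in Python 3.11.15 and carry no test.

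The members and gene lists were chosen with earlier results of these data known. Named genes are all mitochondrial members, SDH subunits and paralogous isoforms, members called (up to 25) or, where fewer than 5 were called, the 3 with the smallest p, and the top 3 called genes of each list in each line comparison. Chromosome, neighbour and transcript length values were added after seeing the data. Some listed genes are not reported here.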

Additional observations from a re-analysis of the deposited data

How the results depend on the processing

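Counts of called members depended most on the control libraries. With no filter on low counts, 38 of 98 members were called for SPARK-ON over control in DMSO instead of 25, 6 higher and 32 lower. Of all 33507 genes 20% were called then. Fitted on the groups compared alone, lenalidomide in SPARK-ON cells called 3 instead of none. Leaving out 1 library at a time gave 17 to 32 calls in DMSO and 13 to 33 with lenalidomide for SPARK-ON over control, and 0 for lenalidomide in either line and for the difference of responses. Without control DMSO replicate 1 and control lenalidomide replicate 2 together, a choice made after seeing the data, 45 were called in DMSO, 34 with lenalidomide, 1 for lenalidomide in SPARK-ON cells and 4 for it in control cells. COX4I1 and UQCRH then changed sign with lenalidomide, at 0.15 (adjusted p = 0.0407) and 0.18 (adjusted p = 0.0324) for SPARK-ON over control; the cause was not tested. Of the 25 calls in DMSO, 21 were among the 45, and 15 held under each of the 21 alternatives. The ratio of the genomes moved by less than its replicate spread under each alternative run, from -0.021 to 0.207 in DMSO and from -0.031 to 0.232 with lenalidomide over single omissions for SPARK-ON over control, 0.0755 to 0.181 for lenalidomide in SPARK-ON cells, and 0.0055 to 0.268 in control cells. The planned ratio without all members that have copies was not run, because it leaves no mitochondrial gene. Low reads limit NDUFV2, SDHA and the members with no read.

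The labels do not say whether replicate numbers pair the samples. Between SPARK-ON groups, same-numbered libraries had correlations of their deviations of -0.00279, 0.0105 and 0.0149, and between control groups -0.182 and -0.133. These cannot settle pairing, since the deviations of the control lenalidomide libraries (n = 2) mirror each other. With the replicate block 22 members were called for SPARK-ON over control in DMSO, 13 with lenalidomide and 0 for lenalidomide in either line.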
